A study of Mus musculus with 12 samples.

Results

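The 47 genes described here encode the machinery that copies DNA in S phase and the enzymes that supply its nucleotides. They cover origin licensing, the MCM helicase and its activators, the polymerases, the sliding clamp and its loader, the single-strand binding protein RPA, Okazaki fragment joining, nucleotide synthesis and histone deposition. They were picked by name from 3 deposited RNA-seq tables, which together list 10289 genes, and all 47 were found. The RNA came from C2C12, a mouse myoblast line that proliferates in growth medium (GM) and fuses into myotubes once serum is withdrawn. There were 4 groups of stable lines with 2 libraries each: GFP-overexpressing cells in GM (day 0) and after 4 days in differentiation medium with horse serum (D4), METTL3-overexpressing cells in GM and METTL14-overexpressing cells in GM. GFP is the negative control, and METTL3 and METTL14 are the core of the m6A RNA methyltransferase. All the lines carry a puromycin-selected lentiviral vector with a CMV promoter, and the METTL3 and METTL14 cDNAs are of mouse origin. For both METTL14-overexpressing libraries the time point field gives D4 and the title D0, and the title was followed.

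The tables compare D4 with GM (9823 genes), METTL3-overexpressing with GFP-overexpressing cells (1754 genes) and METTL14-overexpressing with GFP-overexpressing cells (1102 genes). Each keeps only genes that passed the authors' limit on FDR. The measurement used here is the mean normalized count, which the authors averaged over the libraries of their fit. It is a pooled value without a replicate error and does not separate GM from D4 or one line from another. The fold changes and p-values of the tables were the authors' own comparisons and were not used, so a listed gene is known here only to have passed that limit. The mean of a gene differed between the tables that list it by at most 4.77e-10 of its value, so the tables share a common average. Depth per library cannot be read from these tables. Levels of different genes were compared per kilobase of exon (all annotated exons of a gene merged), and differences between genes could not be set against a spread between libraries.

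The targeted genes and cell type markers were looked up first. Mettl3 had a mean normalized count of 5827 and was listed in the METTL3 table but not in the D4 table. Mettl14 had 6250 and was listed in the METTL14 table and also in the D4 table. Both values include the introduced cDNAs. A pooled mean and a listing without direction cannot show which library is which, so the sample labels were not tested. All 8 muscle markers looked for were listed, from Myf5 at 285 to Acta1 at 34861 per kilobase. Of these, 7 were in the D4 table, which holds 40.1% of annotated protein-coding genes. Myod1 was listed for METTL3 and METTL14 but not for D4. Being listed shows only that a gene passed the limit on FDR. The 4 markers of other cell types looked for (Ptprc, Pecam1, Epcam and Adipoq) were in no table, which does not show that they were absent from the cells. Mki67, Cdk1 and Top2a, which mark cycling cells, stood at 578, 355 and 650 mean normalized counts per kilobase of exon.

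DNA replication is prepared in G1, when the origin recognition complex (ORC), Cdc6 and Cdt1 load the MCM2-7 helicase onto chromatin. In S phase the kinase Cdc7-Dbf4 and the firing factors recruit Cdc45 and GINS, which turn the loaded ring into an active helicase. Many of these genes are known targets of E2F transcription factors, which are held in check by the retinoblastoma protein as myoblasts leave the cell cycle to form myotubes.

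The promoters of these genes are shown before the levels because their sequences do not depend on the RNA measurements. Since many of these genes are known E2F targets, a high share of E2F-type words could be anticipated from the choice of genes. That share is description and no independent result. RefSeq promoter sequences (GRCm38.p6, from 250 bases before to 50 bases after an annotated start site) were matched by symbol for 39 of the 47 genes. Those without an entry were Gmnn, Mcm4, Gins1, Gins2, Gins4, Prim2, Pole and Rfc2. The E2F-type words searched, on both strands, were TTTCCCGC, TTTCCCGG, TTTCGCGC, TTTCGCGG, TTTGCCGC, TTTGCCGG, TTTGGCGC and TTTGGCGG. At least 1 of them was present in 17 of the 39 genes (43.6%), against 702 of 7600 genes listed in any table (9.24%) and 1388 of all 27025 genes with a promoter sequence (5.14%). Only 73.9% of the listed genes matched a promoter sequence by symbol, which is too few to stand for all of them. The comparison with listed genes is therefore void as a check, and their shares describe the matched genes alone. The members were matched by symbol as well, so their share describes the 39 matched genes and not all 47. Of the 25 words found, 7 were TTTCCCGC, 7 TTTGGCGC, 6 TTTCGCGC, 4 TTTGGCGG and 1 TTTCGCGG, and the remaining words of the set were not seen in these windows. The following windows of 30 bases are read on the strand of the gene, with the word, or its reverse complement, in capitals. They are examples, picked after the search to cover the licensing, helicase, polymerase and clamp loader roles, and each holds the word nearest to the start site of its gene for which a full window could be cut.
Mcm3 (chr1:20820275-20820304, minus strand): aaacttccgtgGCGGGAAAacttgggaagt
Mcm5 (chr8:75109349-75109378, plus strand): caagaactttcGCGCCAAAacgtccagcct
Mcm6 (chr1:128359734-128359763, minus strand): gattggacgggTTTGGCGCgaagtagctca
Mcm7 (chr5:138171849-138171878, minus strand): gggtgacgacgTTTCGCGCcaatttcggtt
Orc1 (chr4:108579416-108579445, plus strand): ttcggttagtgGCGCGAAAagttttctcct
Cdc6 (chr11:98908002-98908031, plus strand): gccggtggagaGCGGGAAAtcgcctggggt
Pole2 (chr12:69228162-69228191, minus strand): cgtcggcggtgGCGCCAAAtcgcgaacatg
Rfc3 (chr5:151651190-151651219, minus strand): ctttcgcgctcGCGGGAAAactctactgtc

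Counted by role, the words occurred in 4 of 5 MCM genes with a promoter sequence (Mcm3, Mcm5, Mcm6 and Mcm7, not Mcm2), in 5 of 7 polymerase and primase genes (Pola1, Pola2, Pold1, Pold3 and Pole2) and in 3 of 5 licensing genes (Orc1, Cdc6 and Cdt1). Among the helicase activation genes Gins3 was the 1 of 6 with a word. Of the clamp and clamp loader genes only Rfc3 had a word, 1 of 5, so its window does not stand for that role. Rfc3 had words at -6 and 4 from the start site, and the first stands in lower case in its window. The words were also in 1 of 3 RPA genes (Rpa1), 1 of 2 Okazaki fragment genes (Lig1) and 1 of 2 histone chaperone genes (Chaf1a). None of the 4 nucleotide supply genes (Rrm1, Rrm2, Tyms and Tk1) had one, which says only that these letters are not in this window. Mcm6 had 3 words, an overlapping pair near -106 and a single one at -43 from the start site. In Mcm5 the words at -149 and -145 also overlapped, read from opposite strands. Of the 25 words, 17 (68.0%) lay between 100 bases before and 50 bases after the start, against 53.6% of the 1590 words in all promoters. The median position was 6 bases before the start here and 90 bases before it in all promoters. Identical entries from several start sites of a gene were counted once here but were not removed for all promoters. The positions were therefore not counted in the same way on both sides.

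Other short words of cell cycle promoters were counted as well. The CCAAT box, bound by NF-Y, was present on either strand in 24 of 39 genes (61.5%), against 42.9% of the matched listed genes and 41.1% of all genes. The CHR words TTTGAA and TTCGAA, elements known from late cell cycle genes, were found in 9 (23.1%), against 16.7% of the matched listed genes and 21.7% of all genes. The median GC content was 60.0% (38.7% to 74.7%) in these promoters, 60.7% in the matched listed genes and 52.7% in all genes, and the median number of CpG pairs was 24, 21 and 7. The E2F-type words hold a CG, and the part of base composition in their share was not tested.

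**Figure D1:**
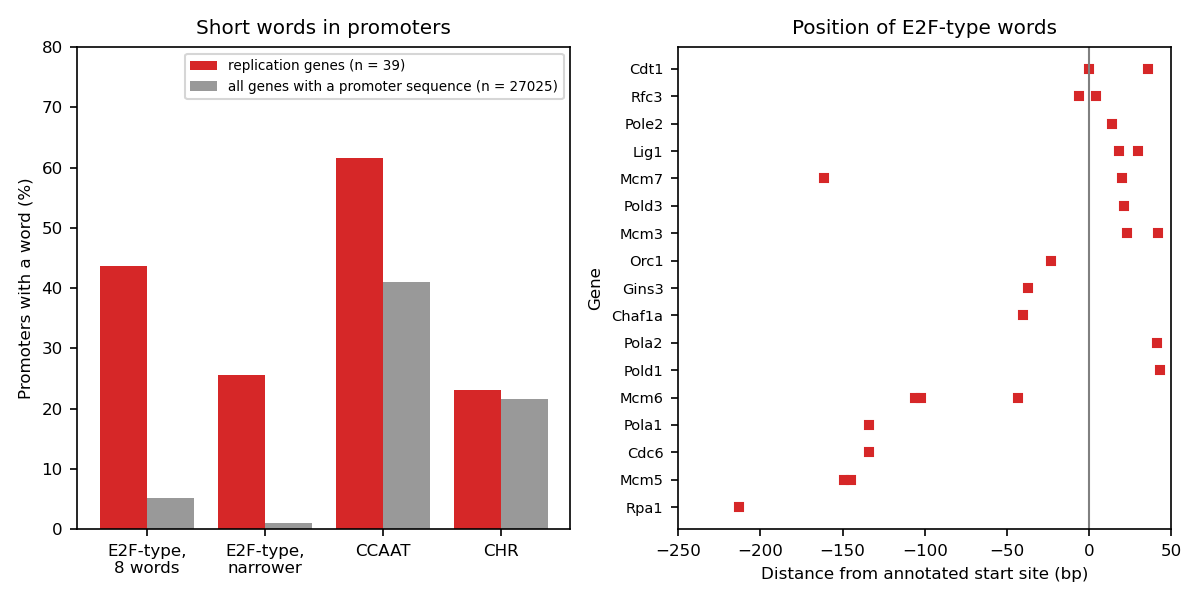
Left, percent of genes with at least 1 word in the promoter window (bars start at 0), for 39 replication and nucleotide supply genes and for all 27025 genes. Right, distance in base pairs of each E2F-type word from the annotated start site (vertical line), 1 row for each of the 17 genes with a word. The E2F-type bars for the 8 words stand at 43.6% and 5.14%, and the CHR bars at 23.1% and 21.7%. The matched listed genes, at 9.24% for the 8 words, are not drawn.

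All 47 genes were listed in the D4 against GM table. That table holds 95.5% of the genes in any of the 3 tables and 40.1% of the 21951 annotated protein-coding genes, and since the 47 were taken from the tables nothing is read from their count. The authors' fold changes were not used, so these data do not give here by how much each gene changed or in which direction. The METTL3 table listed 2 of the 47 (4.26%), Orc6 and Rpa1, against 7.80% of annotated protein-coding genes and 13.9% of the genes in the D4 table. The METTL14 table listed 2 of the 47 (4.26%), Orc6 and Gins3, against 4.91% of annotated protein-coding genes and 8.72% of the genes in the D4 table. Orc6, a small ORC subunit, was the gene common to all 3 tables. A gene that is missing from a table may have missed the limit on FDR, which is not evidence of an unchanged level. The tables for METTL3 and METTL14 share the GFP libraries. Of 36 further replication and nucleotide genes (among them Orc4, Pole3, Clspn and Dut), 32 were listed for D4 against GM, 2 for METTL3 (Rnaseh2a and Asf1b) and 1 for METTL14 (Asf1b). Their levels ran from 17.3 (Chtf8) to 441 (Asf1b) mean normalized counts per kilobase, with a median of 91.1. Orc3, Pold4, Rrm2b and Tk2 were in no table.

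The pooled levels of the 47 genes spanned 85.6-fold, from 17.4 (Fen1) to 1488 (Rrm2) mean normalized counts per kilobase of exon. Their median was 142 (interquartile range 97.2 to 324), against 99.5 (27.5 to 253) for the 10282 listed genes with an annotated length. Of the 47, 35 (74.5%) lay above the median of the listed genes and 2 (Rrm2 and Pcna) in the top 10%. The median gene of the group stood at percentile 60.1. Together the 47 genes made up 0.343% of the summed mean normalized counts of the listed genes and 0.457% of their number. Without division by length all 47 lay between 42.1 (Fen1) and 4124 (Rrm2), and 46 reached a mean normalized count of 100. Of the 10289 listed genes, 7762 reached it.

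**Figure D2:**
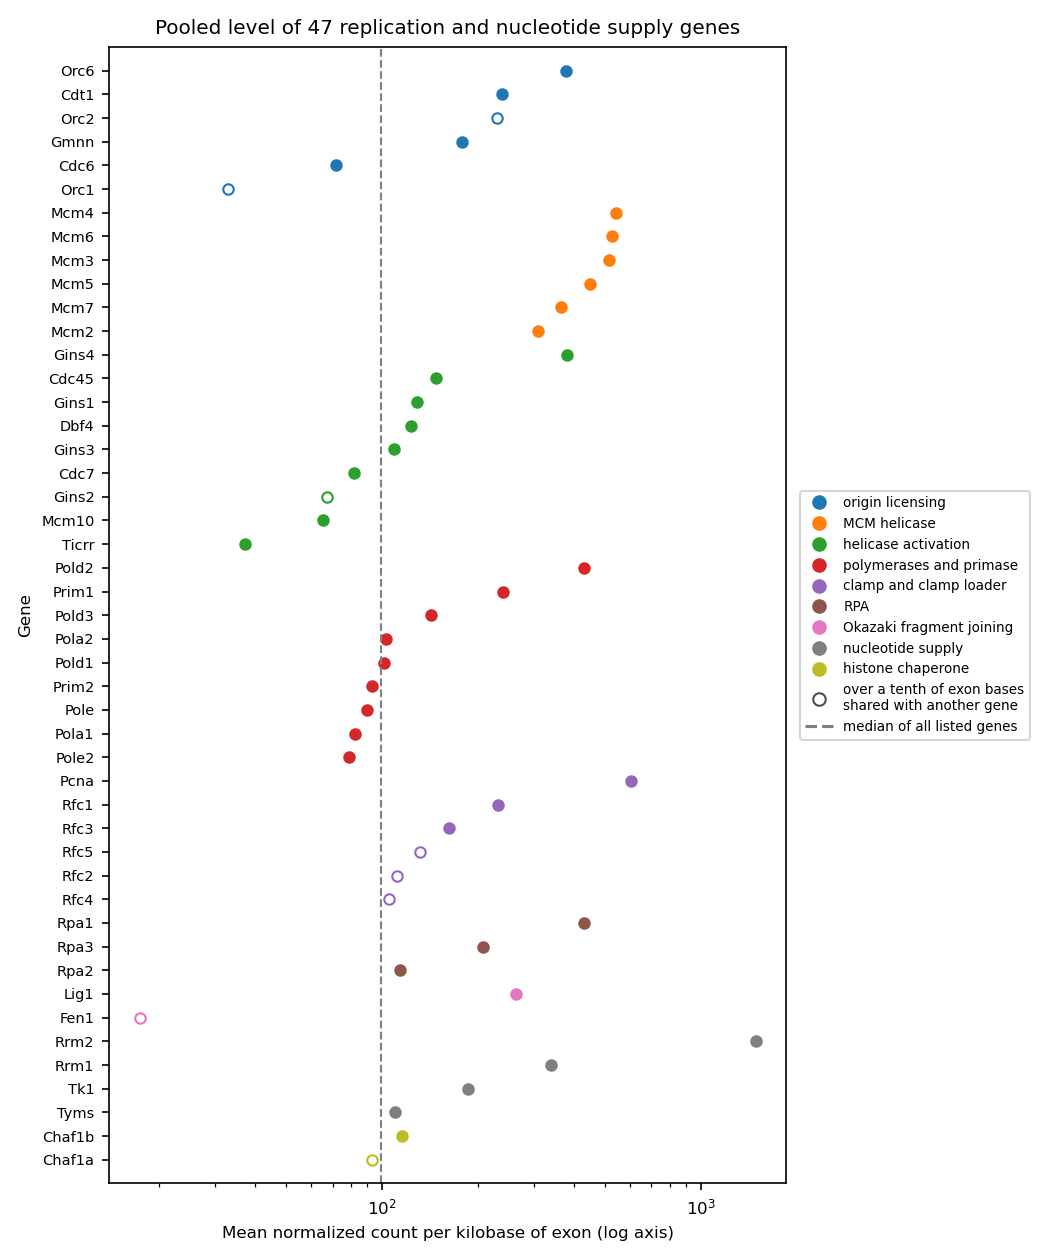
Pooled mean normalized count per kilobase of exon (log axis) of each of the 47 genes, coloured by role, 1 point per gene and no error because the values are means over libraries. Open circles mark genes that share more than 10% of their exon bases with another gene, and the dashed line is the median of all listed genes (99.5). The 6 MCM genes sit close together at 309 to 541, whereas Fen1 and Rrm2 lie at the ends.

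**Figure D3:**
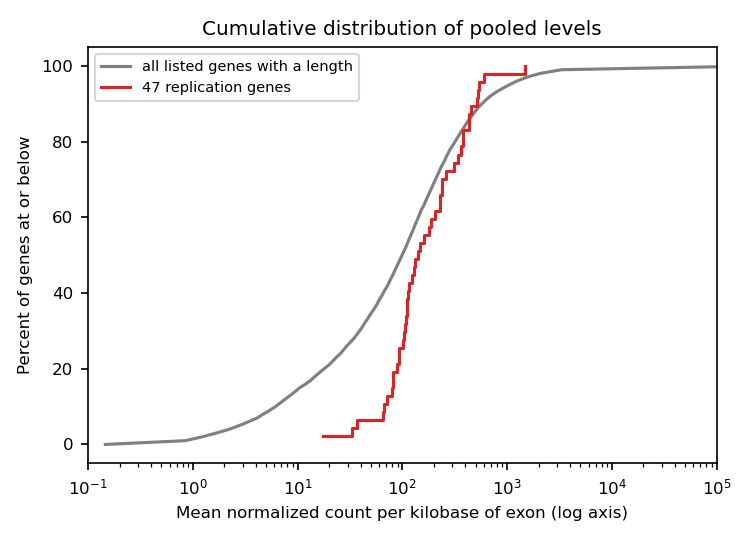
Percent of genes at or below a given mean normalized count per kilobase of exon (log axis), for all listed genes (grey) and for the 47 replication and nucleotide supply genes (red). The red steps begin at 17.4 and end at 1488, and the lowest gene, Fen1, lies at percentile 19.7 of the grey curve.

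Origin licensing genes differed widely in level. Orc6 (chromosome 8, 85299632 to 85308278) was at 377 mean normalized counts per kilobase, Cdt1, which loads MCM with Cdc6, at 237, and the ORC subunit Orc2 at 230. Gmnn, whose product geminin inhibits Cdt1, was at 178. The ATPase Cdc6 was at 71.7 and Orc1 (chromosome 4, 108579423 to 108614833), the largest ORC subunit, at 32.9. The ORC subunits listed here therefore spanned 11.5-fold, more than any other complex examined per kilobase of merged exons. The inhibitor Gmnn and its target Cdt1 were closer, and their difference could not be tested.

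The MCM genes were the most uniform complex of more than 2 subunits. The ring is built from 1 copy of each of 6 related ATPases. Per kilobase, Mcm4 was at 541, Mcm6 at 528, Mcm3 at 517, Mcm5 at 450, Mcm7 at 365 and Mcm2 at 309, a 1.75-fold range. Without division by length their mean normalized counts ran from 1615 (Mcm7) to 2463 (Mcm6), a 1.53-fold range. When the longest transcript replaced the merged exons the range was 1.16-fold, and Mcm2 moved from the lowest of the 6 to the highest (616). The order of the 6 therefore depends on the length used. They held 26.2% of the summed mean normalized counts of the 47 genes, and each lay between percentiles 79.4 and 89.1 of the listed genes.

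The genes that activate the loaded helicase had a median of 109 per kilobase, against 483 for the MCM genes. Gins4 lay above Mcm7 and Mcm2 per kilobase of merged exons only. Without division by length Gins4 was at 512, below the lowest MCM gene (Mcm7, 1615). With the longest transcript it was at 379, again below the lowest (Mcm5, 531). Cdc45 was at 148. Of the GINS tetramer, Gins4 was at 379, Gins1 at 129, Gins3 at 109 and Gins2 at 67.3. The kinase subunit Cdc7 was at 81.9 and its activator Dbf4 at 123. Mcm10, which helps the helicase to start unwinding, was at 65.4, and Ticrr (Treslin), which brings Cdc45 to origins, was the lowest of the role at 37.1. The value of Gins2 is uncertain, since 67.3% of its exon bases lie opposite exons of Gse1. Without Gins2 the range within GINS was 3.48-fold rather than 5.64-fold.

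Among the polymerase and primase genes of the group, the accessory delta subunit Pold2 stood out at 432 per kilobase. Prim1, the catalytic primase subunit, followed at 239 and Pold3 at 142. The remaining 6 lay between 79.0 and 103: Pola2 at 103, the catalytic delta subunit Pold1 at 101, Prim2 at 93.1, the catalytic epsilon subunit Pole at 89.9, the catalytic alpha subunit Pola1 at 82.0 and Pole2 at 79.0. Pole and Pole2, partners in polymerase epsilon, differed by 1.14-fold per kilobase, although their undivided mean normalized counts were 1004 and 227. The epsilon subunits Pole3 and Pole4, which were listed but are outside the group, were at 416 and 125 per kilobase. Both lay above Pole and Pole2, so the 1.14-fold ratio does not describe the whole of polymerase epsilon. Polymerase delta spanned 4.26-fold and polymerase alpha-primase 2.92-fold. With the longest transcript these ranges were 3.53-fold and 2.19-fold, and without division by length 1.66-fold and 1.67-fold. In undivided counts Pold2 (819) lay below Pole (1004), Prim1 (924) and Pola2 (853), so these ranges depend on the length used.

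Pcna, the sliding clamp that tethers the polymerases to DNA, was the second highest gene of the group at 603 per kilobase. The annotation holds processed pseudogenes of Pcna, and Pcna-ps2 was itself listed with a mean normalized count of 250, beside 1448 for Pcna. How reads were divided between these near copies is not known, so the value of Pcna is uncertain. The clamp loader subunits were lower and near each other: Rfc1, the large subunit, was at 231, Rfc3 at 162, Rfc5 at 132, Rfc2 at 112 and Rfc4 at 105, a 2.19-fold range. Their undivided mean normalized counts spanned 8.60-fold, from 162 to 1389.

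RPA coats single-stranded DNA as a trimer. Rpa1, the large subunit, was at 431 per kilobase, Rpa3 at 207 and Rpa2 at 114. Lig1, which seals Okazaki fragments, was at 263. Fen1, the nuclease that trims their flaps, was the lowest of the 47 genes at 17.4 per kilobase and a mean normalized count of 42.1. Of the exon bases of Fen1, 78.8% lie opposite exons of the antisense gene Gm10143, which had a mean normalized count of 16.7, and another 5.37% opposite Tmem258. Whether strand was used in counting is not given in the sources used here, reads in such stretches may be assigned to neither gene, and the part of this overlap in the low value was not tested.

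The nucleotide supply genes held the highest value. Rrm2, the small subunit of ribonucleotide reductase, was at 1488 per kilobase and Rrm1, the large subunit, at 339, a 4.39-fold ratio. Their undivided mean normalized counts were 4124 and 3737, a 1.10-fold ratio, so the gap rests on the length of the merged exons of Rrm1 (11012 bases against 2771). With the longest transcript the ratio was 2.75-fold. Tk1, the salvage enzyme thymidine kinase, was at 186 and Tyms, thymidylate synthase, at 110. The chromatin assembly subunits Chaf1b and Chaf1a, which deposit histones behind the fork, were at 116 and 93.2, a 1.24-fold ratio. Chaf1a shares 52.5% of its exon bases with Ubxn6 on the opposite strand.

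**Figure D4:**
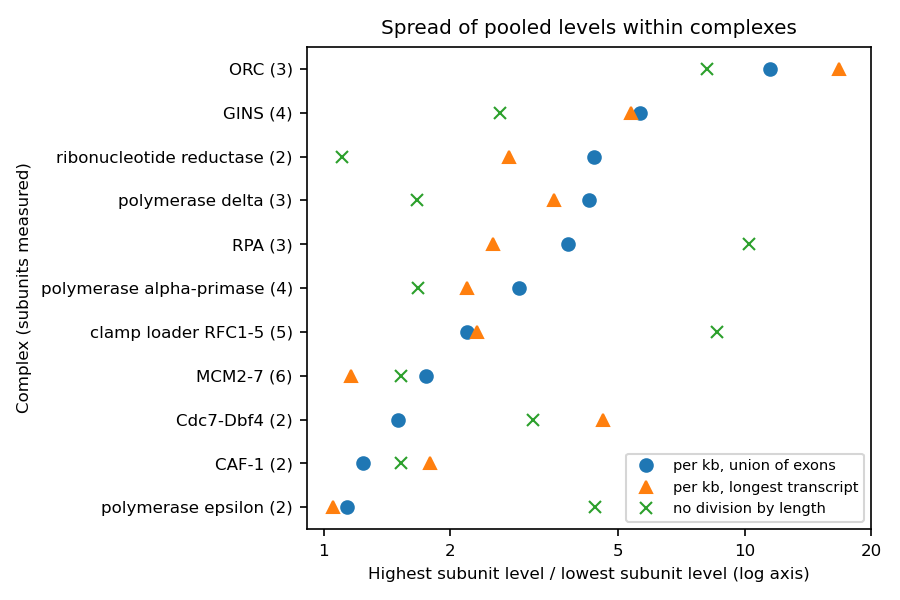
Highest divided by lowest subunit level (log axis) in each complex. Levels are mean normalized counts per kilobase of merged exons, per kilobase of the longest transcript, and without division by length. The numbers in parentheses count the subunits among the 47 genes, which the axis calls measured. Orc4, Orc5, Pole3 and Pole4 were listed too but are not part of these ratios. MCM2-7 stays between 1.16 and 1.75, whereas RPA moves between 2.53 and 10.2 with the length used.

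The genes lie on 15 chromosomes. Exons of 17 of the 47 overlap those of another gene, 15 of them on the opposite strand, and in 8 the overlap is more than 10% of the exon bases: Fen1, Gins2, Chaf1a, Orc2 (29.8%, Nif3l1), Rfc2 (15.1%, Lat2), Rfc4 (12.7%, Eif4a2), Orc1 (10.8%, Gm12743) and Rfc5 (10.7%, Wsb2). A protein-coding gene starts within 1000 bases upstream on the opposite strand for 7 of the 47 (14.9%), against 6.79% of all protein-coding genes. These head-to-head partners were Prpf38a for Orc1 (87 bases apart), Prkdc for Mcm4 (466), Smyd4 for Rpa1 (109), Slc25a40 for Dbf4 (134), Pxmp2 for Pole (120), Abhd12 for Gins1 (659) and Umad1 for Rpa3 (115). Rpa3 had a further protein-coding partner, Gm45062 (277). Prpf38a, Prkdc and Smyd4 were listed in the D4 table, and the others were in no table.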

How the data were processed

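RNA-seq of 8 libraries (6 in GM and 2 at D4) was used as deposited, and the 4 MeRIP-seq libraries were not analysed here. Alignment by the authors was to GRCm38 (hisat2). The authors obtained gene counts from featureCounts on Ensembl annotation 102. The authors ran DESeq2 for their comparisons and kept genes at an FDR of at most 0.05. Versions of these programs are not given in the sources used here. The deposited mean normalized count is a signal that the authors averaged over libraries after division by size factors. Columns of log2 fold change, standard error, Wald statistic, p-value and adjusted p-value hold the authors' own comparisons and were not used, nor was an unheaded value. With no value per library, no test, replicate error or depth could be given.

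Lengths and positions came from GENCODE M21 (GRCm38), in which 10282 of the 10289 listed genes were found. This is another release than the one used for counting. Each mean was divided by the length of the merged exons. Promoters came from RefSeq (GRCm38.p6). Where a gene has several start sites, any window with a word counted. The word search was tested on simulated sequences. All members could be named, and the lists of markers and further replication genes named their highest and lowest as well as members of note chosen after their values were seen. Members and lists were chosen with earlier results of these data known. A protein comparison was planned and not run. Alternatives were other lengths, backgrounds, a limit on low counts, a narrower word set and a single strand. Python 3.11.15, pandas 2.3.3, NumPy 2.4.6 and matplotlib 3.10.9 were used.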

Additional observations from a re-analysis of the deposited data

How the results depend on the processing

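The median percentile of the 47 genes (60.1) was 56.8 among protein-coding genes, 59.6 among genes of the D4 table, 57.4 under a lower limit of 10 on the mean normalized count, 62.1 without division by length and 64.9 with the longest transcript. The range within MCM2-7 (1.75-fold) was 1.53-fold without division by length and 1.16-fold with the longest transcript. The same settings gave 8.60-fold and 2.32-fold for RFC1-5 (2.19-fold), 2.62-fold and 5.37-fold for GINS (5.64-fold), and 10.2-fold and 2.53-fold for RPA (3.80-fold), so these ranges depend on the length used. Leaving out genes with over 10% of exon bases overlapped, an alternative chosen after seeing the data, gave a median percentile of 66.0, 3.48-fold for GINS, and 1.42-fold between Rfc1 and Rfc3, the clamp loader genes that remained. E2F-type words were in 10 of 39 promoters (25.6%, against 1.82% of the matched listed genes and 0.929% of all genes) with the narrower words TTTCGCGC and TTTGGCGC, and in 8 (20.5%, against 4.87% and 2.79%) on the sense strand, rather than 17. Under a lower limit of 100 on the mean, 46, 2 and 2 genes were listed for D4, METTL3 and METTL14. That limit kept 7762 of the 10289 listed genes. The share of all genes in each table at that limit is not given here, so nothing is read from these counts. No paired analysis was possible because the tables hold means over libraries, and for the same reason no library could be left out. Counting error could not be given.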
